A study of Mus musculus with 14 samples.

Results

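The Serpina genes encode clade A serpins, plasma proteins made largely by the liver, and were measured here in livers of Snell dwarf mice and of wild type controls. Members were all probe sets of an Affymetrix mouse array whose annotation lists a gene symbol beginning with Serpina, alone or among several symbols. The rule found 14 probe sets of 12488, which name 10 genes of the 8949 on the array: Serpina1a, Serpina1b, Serpina1c, Serpina1d, Serpina1e, Serpina3n, Serpina5, Serpina6, Serpina10 and Serpina12. Of 6 genes looked for by name 5 were found, and Serpina3k was skipped for want of an annotated probe set. Snell dwarfs are mutant for Pit-1, a factor that pituitary cells need to make growth hormone, prolactin and thyrotropin, and the series title calls them long lived; the wild types are their controls. Groups were 4 dwarfs and 4 wild types of 6 months (animals 83, 85, 87 and 89 against 82, 84, 86 and 88) and 3 dwarfs and 3 wild types of 22 months (animals 3, 4 and 8 against 1, 2 and 24). Each array held RNA of 1 animal, and the labels give no sex, strain or batch.

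A typical serpin presents an exposed loop as bait, and a serine protease that cuts the loop is trapped in an irreversible complex. Serpina1 proteins (alpha-1-antitrypsin, the main inhibitor of neutrophil elastase in plasma, encoded by several near-identical genes in mice), Serpina3n (related to human alpha-1-antichymotrypsin), Serpina5 (protein C inhibitor), Serpina10 (protein Z-dependent inhibitor of an activated clotting factor) and Serpina12 (vaspin, an inhibitor of the kallikrein Klk7 first described in fat) work in this way. Serpina6 does not: it is corticosteroid-binding globulin, the plasma carrier of glucocorticoids. Angiotensinogen (Agt) is another non-inhibitory clade A serpin, kept outside the family here because its symbol differs.

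RefSeq's annotation of GRCm38.p6 lists 29 genes with a Serpina symbol, 28 of them on chromosome 12. In chromosome order the genes on the array are Serpina10, Serpina6, Serpina1b, Serpina1d, Serpina1a, Serpina1c, Serpina1e, Serpina12, Serpina5 and Serpina3n. RefSeq promoter windows (250 bases before to 50 after the gene's start) were at hand for 8 of the 10 genes, the exceptions being Serpina6 and Serpina10. Below, 150 bases of the 5 Serpina1 windows are aligned without gaps on the letters GTTAAT, which they share, to show how alike these genes are near their starts. Most Serpina1 probe sets carry a suffix that marks them as able to detect several related transcripts. Promoter windows do not show which transcripts a probe set reads, and probe sequences were not examined. Capitals mark the 17 positions at which the 5 genes differ. All are 5′ to 3′ on the gene's strand, GRCm38.p6.
Serpina1a, chr12:103863581-103863730, strand -: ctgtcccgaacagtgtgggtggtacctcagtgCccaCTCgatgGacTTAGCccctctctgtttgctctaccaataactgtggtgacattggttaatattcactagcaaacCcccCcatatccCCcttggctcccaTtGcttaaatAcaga
Serpina1b, chr12:103738156-103738305, strand -: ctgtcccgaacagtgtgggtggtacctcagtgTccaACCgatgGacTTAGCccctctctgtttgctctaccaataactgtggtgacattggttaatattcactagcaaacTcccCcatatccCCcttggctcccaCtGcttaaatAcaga
Serpina1c, chr12:103904918-103905067, strand -: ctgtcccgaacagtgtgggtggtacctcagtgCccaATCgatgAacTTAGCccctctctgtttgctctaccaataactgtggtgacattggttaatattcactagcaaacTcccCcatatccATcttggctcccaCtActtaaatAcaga
Serpina1d, chr12:103773590-103773739, strand -: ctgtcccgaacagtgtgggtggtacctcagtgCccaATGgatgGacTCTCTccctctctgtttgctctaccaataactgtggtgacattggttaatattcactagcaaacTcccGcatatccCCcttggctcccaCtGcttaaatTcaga
Serpina1e, chr12:103956916-103957065, strand -: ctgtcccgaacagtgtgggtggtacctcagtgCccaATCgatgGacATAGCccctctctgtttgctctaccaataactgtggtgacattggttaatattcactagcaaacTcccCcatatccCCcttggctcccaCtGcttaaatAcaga
Pairs of these windows differed at 3 to 11 of 150 positions (98.0% to 92.67% identical), and the longest run shared by all 5 genes was 59 bases. The window of Serpina12, whose signal differed most between genotypes, is set beside them, with capitals for the letters TTGCNNAA.
Serpina12, chr12:104044394-104044693, strand -: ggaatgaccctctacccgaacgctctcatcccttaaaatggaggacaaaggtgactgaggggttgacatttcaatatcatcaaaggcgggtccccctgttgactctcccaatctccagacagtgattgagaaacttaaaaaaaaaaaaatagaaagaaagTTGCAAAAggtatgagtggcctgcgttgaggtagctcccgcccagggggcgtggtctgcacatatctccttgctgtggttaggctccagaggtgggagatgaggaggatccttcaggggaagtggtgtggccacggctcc
Short motifs were searched on both strands. GTTAAT, part of the site that the liver factor HNF1 recognises, was present in all 5 Serpina1 windows and in none of those of Serpina12, Serpina3n and Serpina5, against 7.1% of all 32851 promoter windows. TTGCNNAA, a core of C/EBP sites, was present in Serpina12, beginning 90 bases before the start, and in Serpina1a, Serpina1b, Serpina1d, Serpina1e and Serpina5 (10.8% of all windows). TTCNNNGAA, the core that STAT5 recognises, was in none of the 8 windows and in 8.3% of all. TGTTTAC, a FOXA core, was likewise in none of the 8 (3.65% of all). No 2 different motifs overlapped in any of these windows. A match is a string of letters and shows no binding, and sequence outside the windows was not examined.

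Values are MAS5 signals, the array maker's summary of a probe set on a linear scale, as the authors deposited them. A signal at or under 54.9, the pooled 25th percentile of all arrays, was set to that floor before the log2 was taken, and a probe set was tested where it exceeded 184.8 on at least 3 of 14 arrays. Of the 14 member probe sets 12 were tested; both Serpina5 sets were too dim. Fold changes and adjusted p come from limma fitted to all 7227 tested probe sets, with Benjamini-Hochberg adjustment over all of them, and a set is called at an adjusted p under 0.05. Passing the filter can itself require a high group, so counts below cover the tested sets alone. Signals of different probe sets are not compared, since probes differ in brightness. In bulk liver, fewer cells of a type and less RNA per cell cannot be told apart.

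The arrays differed in ways that run beside genotype and age. For the beta-actin control the 3′ signal divided by the 5′ signal was 2.29 to 2.69 in dwarfs of 6 months and 1.16 to 2.38 in wild types of 6 months, and 1.25 to 1.57 in dwarfs and 1.52 to 1.74 in wild types of 22 months. The Gapdh ratio was 1.31 to 1.77 in dwarfs and 0.81 to 1.76 in wild types of 6 months. At 22 months it was 0.82 to 0.97 in dwarfs and 0.96 to 1.12 in wild types. The control for 18S rRNA read 60.8 to 217.4 in dwarfs and 74.5 to 587.6 in wild types of 6 months, and 418.4 to 1048.6 in dwarfs and 339.8 to 4852.8 in wild types of 22 months. The highest signal of any probe set on an array, controls included, was 51230.9 to 73753.4 in dwarfs and 38093.0 to 46891.5 in wild types of 6 months. Xist was at the floor on all 14 arrays. The Y-linked Eif2s3y was higher at 22 than at 6 months in dwarfs (log2 1.17, adjusted p 0.00185) and in wild types (log2 1.26, adjusted p 0.00401). Uty, also Y-linked and tested, was not called with age in dwarfs (log2 -0.09, adjusted p 0.8745) or in wild types (log2 0.39, adjusted p 0.585). The labels' tissue showed in 8 hepatocyte markers, whose summed signal was 144004.8 or more on every array.

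Serpina12 did not rise above the floor in any dwarf liver at 6 months, while all wild type livers had a clear signal. Its probe set, 160951_at, read 30.3, 38.2, 36.7 and 37.1 in the 4 dwarfs, against 2170.3, 2519.6, 2676.3 and 1632.4 in the 4 wild types. All 4 dwarf values lay under the floor and all wild type values far above it. Serpina12 was at least 40.3-fold lower in dwarfs (log2 -5.33 ± 0.33 SE, adjusted p 3.59e-08). In 12 other settings of the processing and with each array left out in turn, the difference was called every time, with adjusted p of 2.08e-05 or less.

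At 22 months the gap was still wide, though dwarf values had left the floor. Serpina12 read 112.0, 122.3 and 451.8 in the 3 dwarfs, against 4014.1, 2837.5 and 3209.0 in the 3 wild types. Animal 8 gave the high dwarf value, still well under each wild type. Serpina12 was 18.1-fold lower in dwarfs (95% interval 10.3 to 31.7, log2 -4.18 ± 0.38 SE, adjusted p 4.97e-06), and log2 -4.83 (adjusted p 1.03e-08) without animal 8, a fold more than 1.5 times as large. This call too was made in all 12 other settings and with each array left out.

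**Figure D1:**
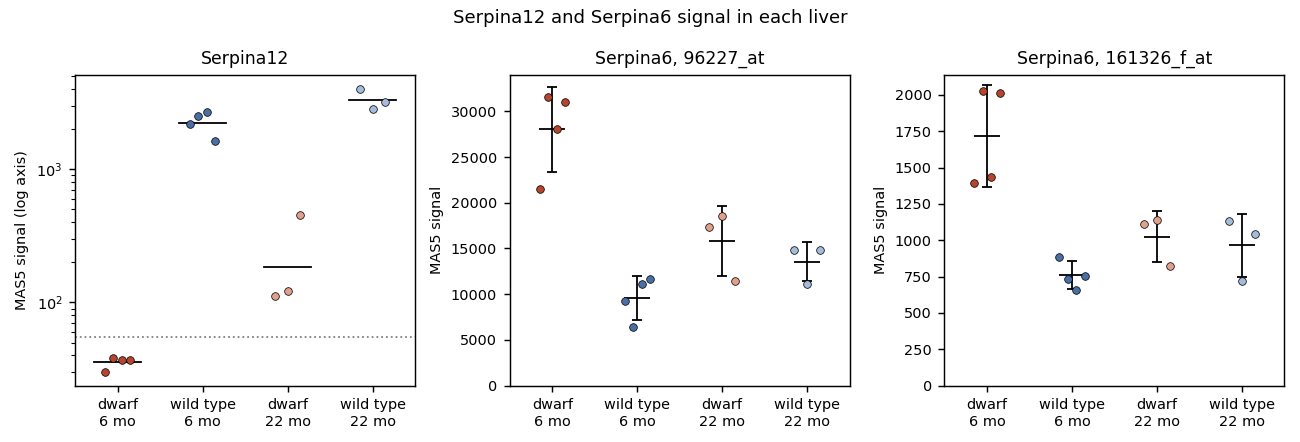
MAS5 signal (vertical axis) of Serpina12 and of the 2 Serpina6 probe sets in each liver, by genotype and age, 1 point per animal. In the Serpina12 panel the axis is logarithmic, the dotted line is the floor of 54.9 and bars are geometric means; in the Serpina6 panels bars are means ± SD, and dwarfs of 6 months stand above the other groups.

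With age, Serpina12 was higher in old dwarfs. Dwarfs of 22 months exceeded those of 6 months by at least 3.34-fold (log2 1.74 ± 0.36 SE, adjusted p 0.00597), with the 3 old values all above the 4 young ones. Without animal 8 the difference was log2 1.09 (adjusted p 0.00971). With the 18S signal as a covariate the call was lost (adjusted p 0.0629), as it was with the 3′ to 5′ ratio of the actin and Gapdh controls (adjusted p 0.101), and fitting the dwarf arrays alone left the set untested. Wild types of 22 months gave log2 0.59 ± 0.36 SE against those of 6 months, with groups that did not overlap and an adjusted p of 0.422. The interaction, the dwarf minus the wild type change with age, was log2 1.16 ± 0.50 SE (adjusted p 0.303), so a difference in the age change between genotypes was not shown. Because young dwarfs lay at the floor, this value is a lower bound and moved with the floor. With the floor at the pooled 10th percentile it was log2 1.79 (adjusted p 0.0962). With no floor and 16 added to each signal it was log2 1.39 (adjusted p 0.173).

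Over the 14 arrays the probe sets most like Serpina12 in log2 signal were Cela1 (Pearson r 0.972), Igfals (0.967) and Mup5 (0.963). Cela1 encodes a pancreatic-type elastase, Igfals the acid-labile subunit that holds IGF in serum, and Mup5 a major urinary protein. With 14 arrays of 2 genotypes, each r carries the gap between genotypes, and none has a p. Igfals read 70.4, 126.0, 98.5 and 64.6 in dwarfs and 3418.7, 2738.8, 3302.9 and 3268.3 in wild types of 6 months, and 412.4, 130.1 and 376.6 in dwarfs and 2441.1, 2382.6 and 2375.9 in wild types of 22 months. Like Serpina12 it was higher at 22 than at 6 months in dwarfs (log2 1.65, adjusted p 0.00449). Cela1 read 388.6 to 526.1 in dwarfs and 1492.4 to 2346.7 in wild types of 6 months, and Mup5 2116.9 to 4106.1 in dwarfs and 25998.0 to 32507.8 in wild types. Cela1 was not called with age in dwarfs (log2 0.35, adjusted p 0.357).

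**Figure D2:**
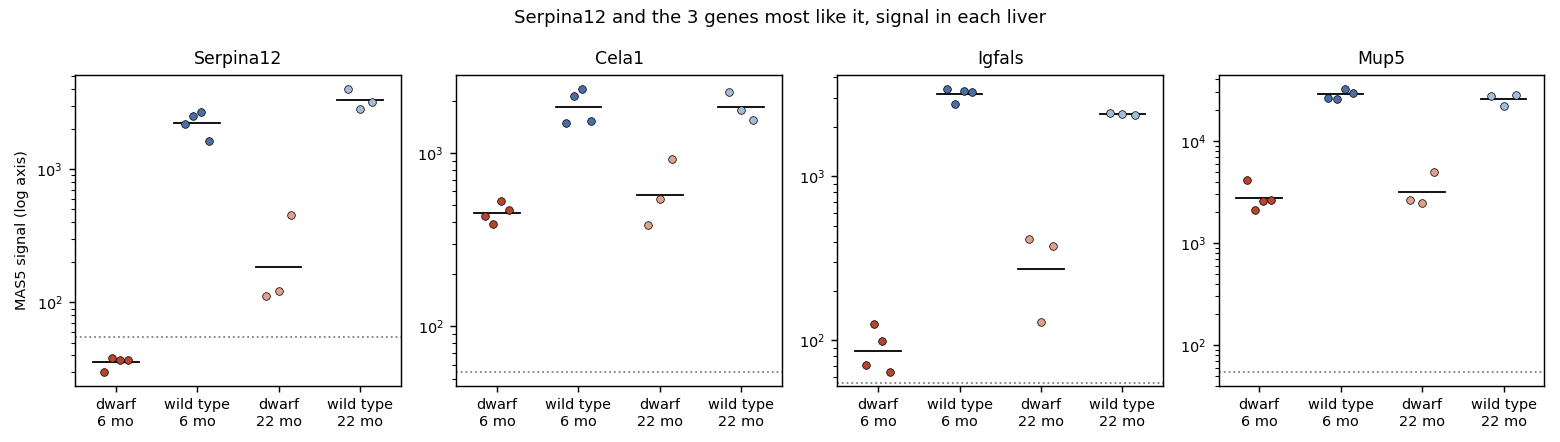
MAS5 signal (logarithmic vertical axis) of Serpina12 and the 3 genes whose log2 signal followed it most closely, 1 point per liver, with bars at geometric means and a dotted line at the floor of 54.9. In all 4 panels every dwarf lies below every wild type, and Serpina12 and Igfals are higher in old than in young dwarfs.

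Markers of other tissues were read beside Serpina12, which fat is known to make. Of 8 adipocyte markers 6 had a probe set and only 3 were tested (Lep, Fabp4 and Lipe), with none called. Retn and Cidec were at the floor on all 14 arrays. Lep made up most of the sum below. It averaged 895.9 in dwarfs and 925.2 in wild types of 6 months, and 1004.1 in dwarfs and 1232.7 in wild types of 22 months. Summed adipocyte signal was 1030.0 to 1729.5 in dwarfs and 1093.3 to 1913.6 in wild types of 6 months, and 1135.6 to 1755.5 in dwarfs and 1322.6 to 1894.7 in wild types of 22 months, so these ranges overlapped. Of 8 exocrine pancreas markers 3 had a probe set: Cela2a, Cel and Cela1, the gene named above as most like Serpina12. Their sum was 774.9 to 1181.0 in dwarfs against 2151.5 to 2852.4 in wild types of 6 months, and 905.3 to 1561.2 in dwarfs against 2275.7 to 2584.9 in wild types of 22 months. Most of this gap was Cela1, which averaged 453.8 in dwarfs and 1878.8 in wild types of 6 months, so the sum only repeats its likeness to Serpina12. Cela1 alone of these was called (log2 -2.03, adjusted p 2.68e-05 at 6 months, log2 -1.67, adjusted p 0.00139 at 22 months), while Cela2a and Cel were not. The parts of fat and pancreatic RNA in the Serpina12 result were not tested.

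Serpina6, the glucocorticoid carrier, was higher in dwarfs of 6 months. Its brighter probe set, 96227_at, read 21460.3, 31595.8, 28057.2 and 31063.5 in dwarfs of 6 months, against 9219.5, 6413.8, 11121.7 and 11705.7 in wild types of 6 months. The lowest dwarf lay well above the highest wild type. The signal was 2.96-fold higher in dwarfs (95% interval 2.19 to 4.00, log2 1.57 ± 0.20 SE, adjusted p 9.34e-05).

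A second Serpina6 set, 161326_f_at, is dimmer and carries the suffix for related transcripts. It read 1391.0, 2027.2, 1431.8 and 2015.7 in dwarfs, against 887.4, 735.2, 655.3 and 756.5 in wild types of 6 months. It was 2.24-fold higher in dwarfs (95% interval 1.71 to 2.94, adjusted p 0.000564), and the 2 sets had an r of 0.916 over the 14 arrays. Both were called at 6 months in 12 other settings and with each array left out.

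At 22 months the genotypes overlapped. Set 96227_at read 17402.1, 18522.6 and 11443.2 in dwarfs and 14797.6, 11112.9 and 14805.7 in wild types (log2 0.20 ± 0.24 SE, 95% interval -0.30 to 0.70, adjusted p 0.868). Set 161326_f_at read 1112.5, 1141.9 and 821.3 in dwarfs and 1133.3, 719.3 and 1044.1 in wild types (log2 0.10 ± 0.21 SE, 95% interval -0.36 to 0.55, adjusted p 0.959). These intervals leave out the 2.96-fold and 2.24-fold differences of young animals.

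Old dwarfs had less Serpina6 signal than young dwarfs, by log2 -0.84 ± 0.22 SE for 96227_at (adjusted p 0.0184) and log2 -0.74 ± 0.20 SE for 161326_f_at (adjusted p 0.0225), with no overlap of the ages in either set. Wild types gave log2 0.52 ± 0.22 SE (adjusted p 0.229) and log2 0.33 ± 0.20 SE (adjusted p 0.422). The interaction was log2 -1.37 ± 0.31 SE for 96227_at (adjusted p 0.0334) and log2 -1.07 ± 0.28 SE for 161326_f_at (adjusted p 0.0681). The age results depended more on single arrays and on the processing. For 96227_at the age call in dwarfs was made in 7 of 12 other settings and was lost without animal 8 of the old dwarfs (log2 -0.63, adjusted p 0.0906). For 161326_f_at it was made in 8 of 12 and was lost without old dwarf animal 3 or 8 or young dwarf animal 85 or 89 (adjusted p up to 0.0995). The 96227_at interaction was called in 6 of 11 other settings and in 6 of 14 fits with an array left out, with adjusted p up to 0.13. The interaction call ended when animal 1 or 24 of the old wild types, 3 or 8 of the old dwarfs, 82 of the young wild types, or 85, 87 or 89 of the young dwarfs was left out. As given above, the actin and Gapdh 3′ to 5′ ratios were higher in young than in old dwarfs without overlap, but in young animals they overlapped between genotypes. The 18S signal was higher at 22 than at 6 months, without overlap in dwarfs and with overlap in wild types. With the 3′ to 5′ ratio of both controls as a covariate the 96227_at interaction was log2 -1.50 (adjusted p 0.0637). With 18S as a covariate it was log2 -1.39 (adjusted p 0.0307), and with no filter on low signals it had the highest adjusted p, 0.13. The 3 genes most like 96227_at were Flcn (r 0.898), Ahnak (0.896) and Clk1 (0.894), and those most like 161326_f_at were Clk1 (0.936), Rere (0.916) and Pxn (0.863).

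The Serpina1 genes were among the brightest on the arrays and differed far less between groups. In 3 of 14 arrays a Serpina1 set was the brightest of all non-control sets. The set annotated to Serpina1b alone, 101576_f_at, read 47699.2, 46683.6, 67246.3 and 48315.2 in dwarfs of 6 months, against 36433.5, 38388.5, 41138.7 and 42343.2 in wild types of 6 months. Every dwarf lay above every wild type, with animal 87 far above the other dwarfs. The difference was log2 0.39 ± 0.13 SE (adjusted p 0.0617), which missed the threshold.

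The set named for Serpina1a, Serpina1b, Serpina1c and Serpina1d, 93109_f_at, read 51796.5, 44395.8, 66453.8 and 48875.0 in dwarfs and 34623.5, 42061.2, 41072.2 and 40690.6 in wild types of 6 months (log2 0.40 ± 0.13 SE, adjusted p 0.0573). The set for Serpina1a, Serpina1c and Serpina1d, 101572_f_at, read 34257.7, 38359.2, 46095.1 and 36405.2 in dwarfs and 32228.8, 32332.8, 34951.4 and 37182.7 in wild types, which overlap (log2 0.18 ± 0.11 SE, adjusted p 0.321). The set naming all 5 genes, 101575_i_at, was much dimmer, at 3099.9, 2878.6, 4449.9 and 2488.0 in dwarfs and 2546.9, 2690.9, 2592.9 and 2581.1 in wild types (log2 0.28 ± 0.16 SE, adjusted p 0.277). Across these 3 sets animal 87 was again the highest.

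Serpina1c is the only gene annotated to 2 sets, and these differ. One of them, 101565_f_at, has the related-transcript suffix, so it may read other Serpina1 genes too. By 101565_f_at, dwarfs of 6 months were higher without overlap, at 47269.8 to 71488.5 against 37414.2 to 43410.5 in wild types (log2 0.44 ± 0.14 SE, adjusted p 0.0502). By 100329_at, which has no related-transcript suffix, they overlapped, at 30713.2 to 38863.4 in dwarfs and 32070.6 to 37275.3 in wild types (log2 -0.09 ± 0.11 SE, adjusted p 0.644). The r of the pair was 0.438. With the remaining Serpina1 sets, 101565_f_at had an r of 0.792 to 0.984 and 100329_at an r of 0.456 to 0.718. Serpina1e's set, 101574_f_at, ran from 42470.8 to 63509.0 in dwarfs and from 34486.2 to 42234.8 in wild types (log2 0.35 ± 0.13 SE, adjusted p 0.097).

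None of the 7 Serpina1 sets was called at 6 months. In 4 of the 7 the groups did not overlap and dwarfs were higher, against 9.31% of all tested sets, but the direction depends on how arrays are scaled. After quantile normalization the 7 differences ran from log2 -0.29 (100329_at, then called lower in dwarfs, adjusted p 0.0104) to log2 0.39 (101575_i_at), with 4 of the 7 below 0; scaled to a common median they ran from log2 -0.28 to 0.24 with 100329_at and 101572_f_at below 0. Albumin (Alb) and apolipoprotein A-I (Apoa1) behaved alike: Alb was log2 0.44 higher in dwarfs of 6 months (adjusted p 0.0338) and Apoa1 log2 0.47 (adjusted p 0.0358), and after quantile normalization the 2 differences were log2 0.01 and log2 0.07 (adjusted p 0.911 and 0.587). Alb had an r of 0.981 with 101576_f_at and 0.983 with 93109_f_at, and Apoa1 0.968 and 0.976. Of the other 2 sets that can hold Serpina1a, 101572_f_at was most like Zranb1 (0.885), Cd27 (0.87) and Zfpm1 (0.861), and 101575_i_at most like Cyp2e1 (0.857), Acaa2 (0.852) and Znrf1 (0.845).

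**Figure D3:**
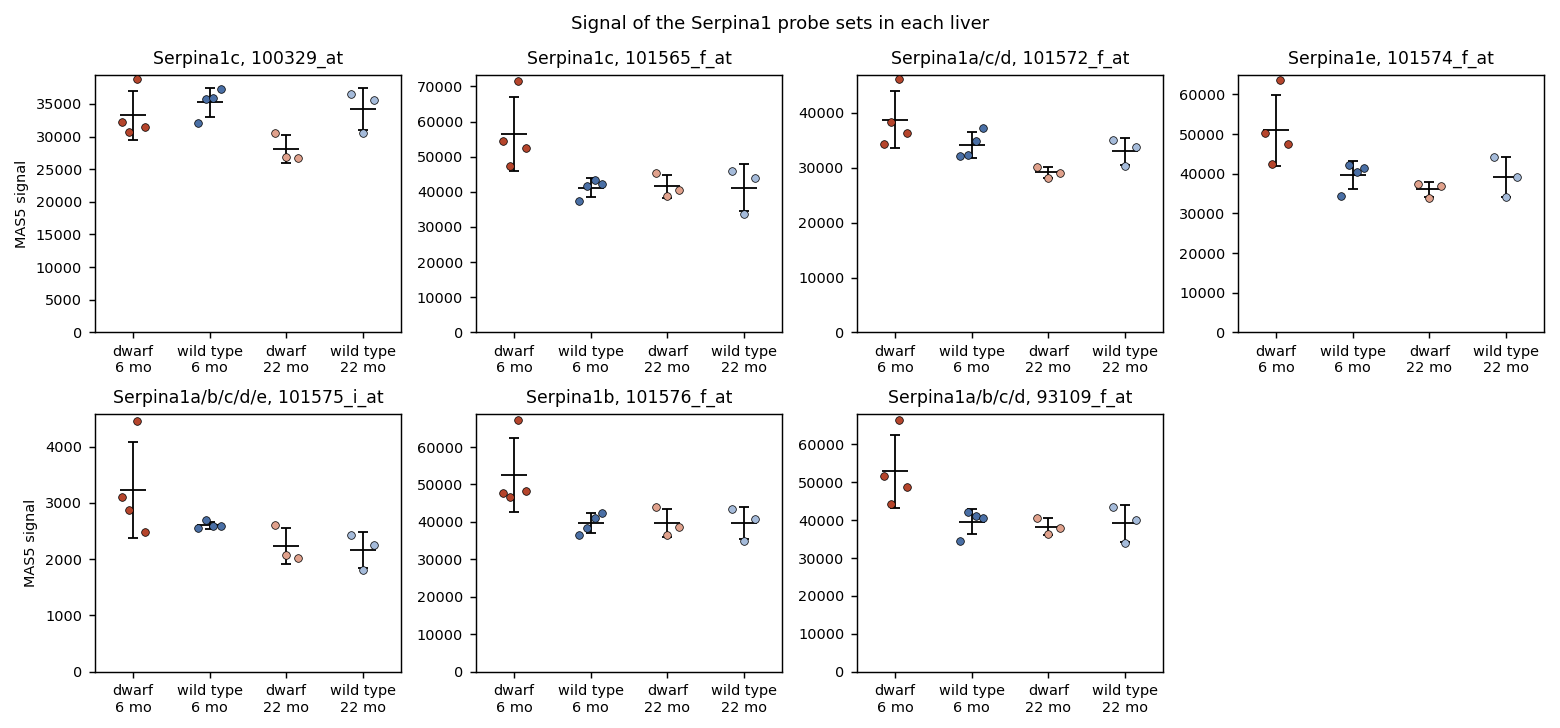
MAS5 signal (vertical axis, from 0) of the 7 Serpina1 probe sets in each liver, 1 point per animal, with mean ± SD; panel titles name the genes each set is annotated with. Animal 87 is the highest dwarf of 6 months in every panel, and the 2 Serpina1c sets in the first panels of the top row differ in how dwarfs and wild types of 6 months lie.

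At 22 months no Serpina1 set was called. Serpina1b's 101576_f_at read 43876.4, 36577.7 and 38686.1 in dwarfs and 43469.6, 35014.6 and 40664.3 in wild types (log2 0.00 ± 0.15 SE). Set 93109_f_at read 40678.2, 36325.9 and 37833.9 in dwarfs and 43541.5, 33896.6 and 40061.0 in wild types, and 101575_i_at read 2599.9, 2068.9 and 2016.9 in dwarfs and 2432.4, 1799.7 and 2258.4 in wild types. For 101572_f_at the values were 30192.7, 28127.0 and 29116.7 in dwarfs and 35085.0, 30286.4 and 33728.8 in wild types, all dwarfs below all wild types (log2 -0.18 ± 0.13 SE, adjusted p 0.69). Serpina1c's 100329_at likewise did not overlap (26718.6 to 30544.4 in dwarfs, 30599.5 to 36551.1 in wild types, adjusted p 0.376). With Serpina12 and Serpina10, 4 of the 12 tested member sets were lower in old dwarfs without overlap, against 11.5% of all tested sets.

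With age, 3 Serpina1 sets were lower in old than in young dwarfs: 101572_f_at (log2 -0.40 ± 0.12 SE, adjusted p 0.0367), 101574_f_at (log2 -0.48 ± 0.14 SE, adjusted p 0.0335) and 93109_f_at (log2 -0.45 ± 0.14 SE, adjusted p 0.0444). These calls held in 5 of 12 other settings each. Quantile normalization shrank the 3 differences to between log2 -0.02 and -0.09, and with the 18S signal or the 3′ to 5′ ratio as a covariate none was called. Leaving out old dwarf animal 3, 4 or 8 or young dwarf animal 87 ended all 3 calls, with adjusted p up to 0.136. The 101572_f_at call also ended without young dwarf animal 85, and the 93109_f_at call without young dwarf animal 83 or 89, young wild type animal 84 or 86, or old wild type animal 24. Alb was lower with age in dwarfs too (log2 -0.43, adjusted p 0.0462), as was Apoa1 (log2 -0.50, adjusted p 0.0348); neither was called after quantile normalization (log2 0.01 and -0.10). In wild types the 7 Serpina1 sets changed with age by log2 -0.28 to 0.00, with no call.

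Serpina3n, an acute-phase serpin (set 104374_at), read 10414.7, 10380.6, 9971.5 and 9409.3 in dwarfs of 6 months, against 9616.5, 7149.4, 6569.9 and 5770.5 in wild types of 6 months. Only wild type animal 82 reached the dwarf range. The difference was 1.41-fold (95% interval 1.10 to 1.79, log2 0.49 ± 0.17 SE) with an adjusted p of 0.0611, just outside the threshold. After quantile normalization it was called (log2 0.52, adjusted p 0.0382).

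In old livers Serpina3n read 8594.0, 7231.9 and 6299.0 in dwarfs and 6083.4, 7446.9 and 9492.8 in wild types (log2 -0.05 ± 0.19 SE, adjusted p 0.981). Old dwarfs lay below young dwarfs without overlap (log2 -0.46 ± 0.18 SE, adjusted p 0.0911), and the interaction was log2 -0.54 ± 0.25 SE (adjusted p 0.346). The sets most like Serpina3n were annotated to Rps4x (r 0.903), Cant1 (0.882) and Chrne (0.875).

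Serpina10, the inhibitor that works with protein Z in clotting (set 96787_at), read 3396.7, 2299.0, 2276.5 and 2738.7 in dwarfs of 6 months and 4658.3, 4446.5, 2643.1 and 2664.4 in wild types of 6 months (log2 -0.40 ± 0.23 SE, adjusted p 0.263). At 22 months it read 2958.7, 2195.2 and 2358.6 in dwarfs, against 2996.1, 4452.9 and 5610.4 in wild types. All old dwarfs lay below all old wild types, 1 of them narrowly. The difference was 1.70-fold (95% interval 1.15 to 2.49, log2 -0.76 ± 0.26 SE), with an adjusted p of 0.164.

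Serpina5, protein C inhibitor, was dim in all groups. Over both sets and all 14 arrays its signal ran from 20.5 to 168.2, under the level of 184.8 asked of a tested set. Set 101187_at averaged 76.5 ± 40.4 in dwarfs and 73.1 ± 24.3 in wild types of 6 months (SD, n = 4 each), and 86.0 ± 6.39 in dwarfs and 106.2 ± 5.11 in wild types of 22 months (SD, n = 3 each). Set 161259_f_at averaged 102.2 ± 68.2 in dwarfs and 123.4 ± 34.8 in wild types of 6 months, and 52.2 ± 45.1 in dwarfs and 96.9 ± 33.0 in wild types of 22 months. Some values of both sets lay at the floor, so they bear no order.

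**Figure D4:**
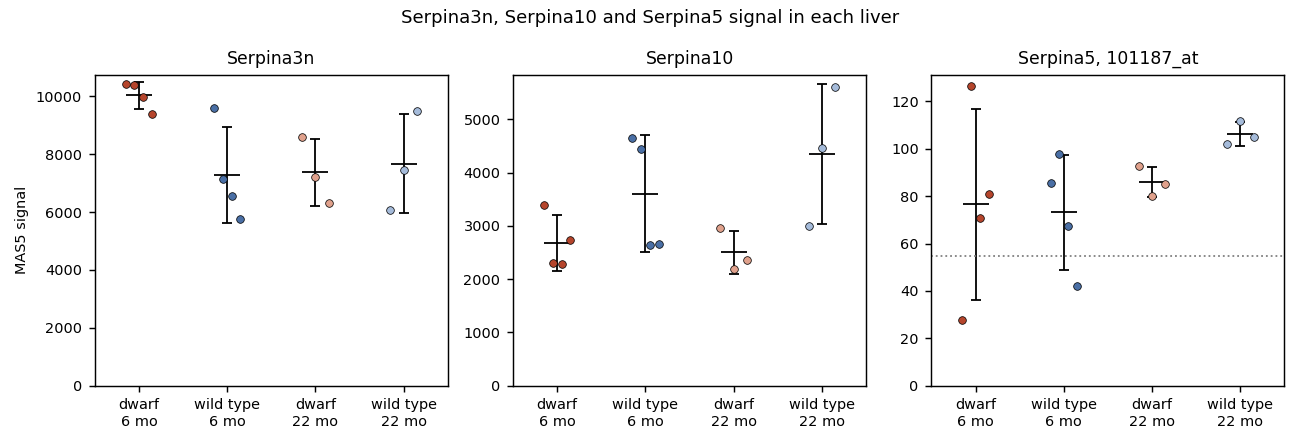
MAS5 signal (vertical axis, from 0) of Serpina3n, Serpina10 and the Serpina5 set 101187_at in each liver, 1 point per animal, with mean ± SD and, for Serpina5, the floor of 54.9 as a dotted line. Dwarfs of 6 months lie at 9409.3 to 10414.7 for Serpina3n, and dwarfs of 22 months lie below the wild types for Serpina10.

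Counted together, 3 of the 12 tested sets were called at 6 months (13.3% of all tested sets were), 2 higher in dwarfs (both Serpina6; 6.37% of all) and 1 lower (Serpina12; 6.95% of all), and 9 were not called. At 22 months 1 was called, lower (Serpina12; 2.93% of all sets were called, 1.56% lower). With age in wild types none was called, against 2.49% of all sets, and 1 had an unadjusted p under 0.05. With age in dwarfs 6 were called (16.5% of all), 1 higher (Serpina12; 7.94% of all) and 5 lower (both Serpina6 sets and 3 Serpina1 sets; 8.57% of all). For the interaction 1 was called, the brighter Serpina6 set 96227_at, with a negative value (2.19% of all called, 0.65% lower). Lower in old than in young dwarfs without overlap were 9 of the 12, against 16.5% of all sets. The members' median differences were log2 0.37 at 6 months (all tested sets 0.10), -0.04 at 22 months (0.01), -0.01 with age in wild types (-0.02), -0.44 with age in dwarfs (-0.09) and -0.40 for the interaction (-0.08). These medians rest on 7 Serpina1 sets that may read overlapping transcripts, and they move with the scaling: after quantile normalization they were log2 -0.01 at 6 months and -0.08 with age in dwarfs. The contrasts share arrays, so their values are not independent of each other.

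**Figure D5:**
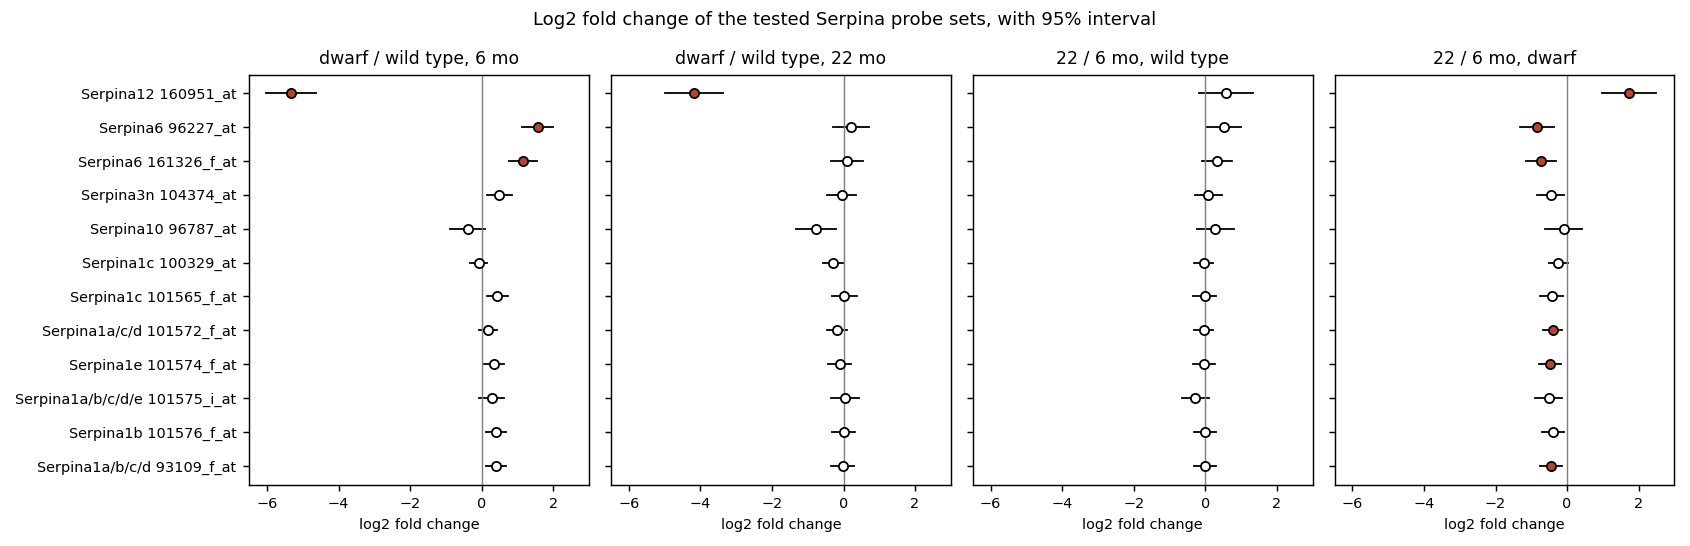
Log2 fold change (horizontal axis) of each of the 12 tested Serpina probe sets in 4 contrasts, with 95% intervals as lines; filled points have an adjusted p under 0.05. Serpina12 lies far left in both genotype contrasts, and the 2 Serpina6 sets lie right at 6 months and near 0 at 22 months. With age in dwarfs all Serpina1 sets lie left of 0, and 101572_f_at, 101574_f_at and 93109_f_at are filled. In the other contrasts no Serpina1 set is filled.

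Serpins of other symbols were read for context, from a list of 16 with 9 tested. Agt, the precursor of angiotensin, was higher in dwarfs at both ages: it averaged 15863.8 in dwarfs and 5235.1 in wild types of 6 months (log2 1.62, adjusted p 2.96e-05) and 10302.1 in dwarfs and 5356.7 in wild types of 22 months (log2 0.95, adjusted p 0.0244). It was lower in old than in young dwarfs (log2 -0.63, adjusted p 0.0462). With arrays scaled to a common median Agt missed the threshold at 22 months (adjusted p 0.0514) and with age in dwarfs (adjusted p 0.218). Serping1, the C1 inhibitor of complement, was lower in dwarfs, by log2 -0.73 at 6 months (adjusted p 0.00409) and log2 -0.96 at 22 months (adjusted p 0.00341). Of all tested sets 6.37% were called higher and 6.95% lower at 6 months, and 1.37% higher and 1.56% lower at 22 months. With age in dwarfs 8.57% were called lower. Serpinf2, the plasmin inhibitor, was higher with age in wild types (log2 1.03, adjusted p 0.0497; 1.45% of all sets were called higher). No other tested member of the list was called, including antithrombin (Serpinc1) and heparin cofactor (Serpind1).

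Among 9 tested proteases that serpins can meet, none was called between genotypes at either age, against 13.3% of all tested sets at 6 months and 2.93% at 22 months. Proc, the protein C zymogen, was higher with age in wild types (log2 0.83, adjusted p 0.0229) and in dwarfs (log2 0.65, adjusted p 0.0199), and Gzmb, a granzyme, was lower with age in dwarfs (log2 -1.83, adjusted p 0.0169). Of all tested sets 1.45% were called higher with age in wild types, and 7.94% higher and 8.57% lower in dwarfs. Of 6 tested plasma carriers of hormones and vitamins 3 were higher in dwarfs of 6 months: Alb and Apoa1, as above, and Rbp4, the retinol carrier (log2 0.65, adjusted p 0.0089), although with arrays scaled to a common median none of these 3 was called (adjusted p 0.0662 for Rbp4). None was called at 22 months, and Alb and Apoa1 were the 2 that were lower with age in dwarfs. At 6 months 6.37% of all tested sets were called higher.

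In the growth hormone pathway 8 genes were tested. Igf1 (log2 -3.96, adjusted p 1.36e-07), Igfals (log2 -5.19, adjusted p 1.31e-08) and the receptor Ghr (log2 -0.56, adjusted p 0.00528) were lower in dwarfs of 6 months. At 22 months Igf1 (log2 -3.91, adjusted p 1.70e-06), Igfals (log2 -3.14, adjusted p 3.50e-05) and the feedback inhibitor Socs2 (log2 -2.59, adjusted p 0.000218) were lower. Of all tested sets 6.95% were called lower at 6 months and 1.56% at 22 months. Ghr was lower with age in wild types (log2 -0.61, adjusted p 0.0234; 1.04% of all sets were called lower). For the interaction Ghr (log2 0.88, adjusted p 0.0225) and Igfals (log2 2.05, adjusted p 0.0294) were called higher, as were 1.54% of all sets.

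Of 10 tested liver transcription factors 2 were higher in dwarfs of 6 months, Foxa3 (log2 0.71, adjusted p 0.00565) and Stat3 (log2 0.53, adjusted p 0.0286). Foxa3 was lower in dwarfs of 22 months (log2 -0.74, adjusted p 0.0273), higher with age in wild types (log2 1.19, adjusted p 0.00152) and negative in the interaction (log2 -1.44, adjusted p 0.00492). Stat3 was lower with age in dwarfs (log2 -0.63, adjusted p 0.0174). Of 17 tested acute-phase genes 6 were lower in dwarfs of 6 months (Saa2, Orm1, Orm3, Apcs, Fgb and Itih4, log2 -4.80 to -0.51) and 2 at 22 months (Apcs, log2 -1.71, and Itih4, log2 -0.93). Orm1, Orm3 and Apcs were higher with age in dwarfs (log2 3.92, 2.97 and 0.77), and Orm1 and Orm3 were called in the interaction (log2 3.65 and 2.68). Of all tested sets 6.37% were called higher and 6.95% lower at 6 months, and 1.56% lower at 22 months. With age 1.45% were called higher in wild types, and 7.94% higher and 8.57% lower in dwarfs. In the interaction 1.54% were called higher and 0.65% lower.

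Markers of other liver cells also differed in young dwarfs, in which Serpina6 was high. The sums below add signals as deposited. Array medians were themselves higher in young dwarfs (186.85 to 221.05, against 174.85 to 183.2 in wild types of 6 months). Sums after other scalings were not made. Of 5 tested B and plasma cell markers 3 were higher in dwarfs of 6 months (Cd79b, Jchain and Ighm), of 5 endothelial markers 2 (Kdr and Stab1) and of 4 stellate markers 1 (Reln). Over all tested sets 6.37% were called higher at 6 months and 6.95% lower, and 9.31% were higher without overlap. Summed over the 7 stellate markers with a probe set, the signal was 8462.3 to 11474.2 in dwarfs and 6900.5 to 7817.0 in wild types of 6 months; over 8 endothelial markers it was 4362.1 to 5290.1 in dwarfs and 3283.1 to 4240.8 in wild types; over 6 B and plasma cell markers it was 2420.9 to 2902.3 in dwarfs and 1666.2 to 2239.5 in wild types; and over 8 neutrophil markers, with none of 4 tested called, it was 2187.0 to 3299.7 in dwarfs and 1665.9 to 2143.9 in wild types. Of 8 hepatocyte markers 3 were higher (Alb, Apoa1 and Cps1) and 1 lower (Fgb), with sums of 176243.4 to 237625.2 in dwarfs and 144145.1 to 174606.1 in wild types. No macrophage, T and NK cell or bile duct marker was called at 6 months (6, 1 and 1 tested); Krt19, Krt7 and Epcam, which define bile duct cells, were at the floor on all arrays. At 22 months 1 of 6 macrophage markers was called (Clec4f, log2 -1.16, adjusted p 0.0196) and none of the hepatocyte, stellate, endothelial, B and plasma cell, neutrophil, T and NK cell or bile duct ones. At that age 1.56% of all tested sets were called lower.

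With age in dwarfs, where both Serpina6 sets and 3 Serpina1 sets were lower, 6 markers of these cells were called lower too, as were 8.57% of all tested sets. They were 3 of 8 tested hepatocyte markers (Alb and Apoa1, as above, and the amino acid enzyme Tat, log2 -0.70, adjusted p 0.0388), 1 of 4 neutrophil markers (Camp, an antimicrobial peptide, log2 -1.33, adjusted p 0.0081), 1 of 5 endothelial markers (Stab1, log2 -0.68, adjusted p 0.0356) and 1 of 4 stellate markers (the collagen gene Col1a2, log2 -0.70, adjusted p 0.018). The summed signal in dwarfs was 148563.7 to 167578.8 at 22 months and 176243.4 to 237625.2 at 6 months for hepatocyte markers, 1664.9 to 1987.0 and 2187.0 to 3299.7 for neutrophil markers, 3369.1 to 3820.8 and 4362.1 to 5290.1 for endothelial markers, and 6769.5 to 8306.5 and 8462.3 to 11474.2 for stellate markers, with no overlap of the ages in these 4 lists. Bile duct marker sums did not overlap either, at 262.8 to 392.3 at 22 months and 406.0 to 544.0 at 6 months, although 3 of these markers were at the floor on all arrays. Of all single tested sets 16.5% were lower in old than in young dwarfs without overlap. No macrophage, B and plasma cell, T and NK cell, bile duct, adipocyte or pancreas marker was called with age in dwarfs. With age in wild types 4 were higher: the macrophage lysozyme Lyz2 (log2 0.75, adjusted p 0.0392), the antibody genes Jchain (log2 1.07, adjusted p 0.0282) and Ighm (log2 1.01, adjusted p 0.0276), and Reln (log2 0.72, adjusted p 0.0465). Over all tested sets 1.45% were called higher with age in wild types. In the interaction, beside Serpina6, Ighm (log2 -1.36, adjusted p 0.0339) and Reln (log2 -1.10, adjusted p 0.0363) were called, and 0.65% of all tested sets were called lower. The part of these markers in the Serpina results was not tested.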

How the data were processed

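Liver total RNA was labelled with biotin and hybridised to Affymetrix mouse arrays, 1 animal per array. The deposited values are signal intensities made with MAS5 on a linear scale, per the submitters' processing notes; further settings are not given in the sources used here. The trimmed mean of the arrays ran from 500.357 to 500.437, and no scaling was added in the main fit. Array medians still differed, at 186.85 to 221.05 in dwarfs and 174.85 to 183.2 in wild types of 6 months. At 22 months they were 166.8 to 187.1 in dwarfs and 170.55 to 186.3 in wild types. Other scalings were run as alternatives. Annotation gave 1 symbol to 11 and several to 3 of the 14 Serpina probe sets; 7 had the suffix f_at and 1 i_at. A gene on a context list is represented by its brightest tested set. Log2 signals, floored at 54.9, were fitted with limma 3.58.1 in R 4.3.3, 1 mean per group over 14 arrays and 7227 probe sets (66 control sets left out), eBayes with an intensity trend; contrasts are dwarf against wild type, 22 against 6 months, and their interaction. The fit was tested on simulated data. All Serpina sets are described, with values per animal for the 5 genes looked for and found and with the 3 sets most like each; of the context lists called members are named. The members, gene lists and rules were chosen with earlier results of these data known. P-values set a difference between groups against the spread between animals, estimated over all 14 arrays with information shared across probe sets. The number of arrays limits the precision. Sequences are RefSeq's. Tables were joined in Python 3.11.15.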

Additional observations from a re-analysis of the deposited data

Results flagged for a closer look

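In young dwarfs Serpina1b's set 101576_f_at read 67246.3 in animal 87, apart from the other 3 dwarfs at 46683.6 to 48315.2; the gap was 0.921 of the group's range, against a critical value of 0.829. Of 28 groups of 4 values tested 1 stood out in this way, and chance alone gives about 1 in 20.

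For Serpina6 set 96227_at the interaction of genotype and age was called in the main fit, at log2 -1.37 (-1.366, adjusted p 0.0334, over alternatives 0.0196 to 0.13). The call was made in 6 of 11 other settings and in 6 of 14 fits with an array left out. The second Serpina6 set, 161326_f_at, was not called (adjusted p 0.0681). Dwarfs of 6 months read 21460.3 to 31595.8, against 6413.8 to 11705.7 in wild types, and dwarfs of 22 months 11443.2 to 18522.6, against 11112.9 to 14805.7 in wild types.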

How the results depend on the processing

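The count of called Serpina sets was 1 at 22 months and 0 with age in wild types under every alternative run. At 6 months it was 3, and became 5 with quantile normalization, 8 with the filter at the pooled 75th percentile and 6 with robust eBayes; it was 3 to 6 with an array left out (6 without dwarf animal 85), and each of these counts held the same 3 sets. With age in dwarfs it was 6, and became 3 with quantile normalization, with eBayes without trend or with only the groups compared, 1 with arrays scaled to a common median or no filter, 0 with the 18S signal or the 3′ to 5′ ratio as a covariate, 7 with robust eBayes, and 9 with the 75th percentile filter or array weights; leaving out an array gave 1 to 6, with 1, 2 and 3 without old dwarf animals 8, 3 and 4 and 3 without young dwarf animal 87. For the interaction it was 1, and became 0 with quantile normalization, scaling to the median, no filter, no trend or the 3′ to 5′ ratio, and 2 with the 75th percentile filter, array weights or the 18S signal; leaving out an array gave 0 to 2 (2 without old wild type animal 2 or young dwarf animal 83, and 0 without the 8 arrays named for Serpina6). No called difference changed sign. The median of all tested sets at 6 months was log2 0.10, and -0.10 with arrays scaled to a common median; with age in dwarfs it was -0.09, and 0.12. No paired analysis was possible because animal numbers are not shared between groups. Both Serpina5 sets were too dim to test, and Serpina12 in young dwarfs lay under the floor, which limits its fold to a bound.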
